A study of Mus musculus with 12 samples.

Results

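The Notch pathway was followed through its ligands Dll1, Jag1 and Jag2, its receptors Notch1, Notch2 and Notch3, and its targets Hes1, Hey1, Heyl and Nrarp, in C2C12 cells, a mouse myoblast line of the C3H strain. The deposited array table was searched for every probe that carries one of these 10 gene symbols, which gave 14 probes of 56745 in all. RNA came from 4 conditions with 3 arrays each, 12 arrays in all. Cells received either siBach1, a single siRNA duplex against the transcription factor Bach1, or the negative control siRNA siControl, and were collected at day 0 or at day 2 after a confluent culture was switched to medium with 2% horse serum, which starts myotube formation. All 4 conditions went through transfection, so no untransfected culture stands beside them, and the siBach1 duplex was not joined by a second one. The triplicates are not described as separate cultures, and p-values therefore measure the spread between these arrays, which may be technical.

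Notch signalling passes between neighbouring cells. A ligand of the Delta or Jagged family on one cell binds a Notch receptor on the next, the receptor is cut by an ADAM protease and then by gamma-secretase, and the freed intracellular domain enters the nucleus, where it joins the DNA-binding protein RBPJ and a Mastermind coactivator. Genes of the Hes and Hey families, which encode basic helix-loop-helix repressors, and Nrarp, a feedback inhibitor, are its common targets. In skeletal muscle the pathway is known for keeping satellite cells and myoblasts from differentiating.

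Among the ligands, 3 genes were higher after siBach1 at day 0, and the upstream sequences of these 3 are shown because the genes moved together there. The sequences are the 250 bases before an annotated start, written 5′ to 3′ in the direction of the gene, from RefSeq with the build GRCm38.p6. For Jag1 this is chr2:137116521-137116770 on the minus strand, for Dll1 the outer of its 2 listed starts, chr17:15376933-15377182 on the minus strand, and for Jag2 chr12:112929496-112929745 on the minus strand. Capitals mark matches to CAGCTG, an E box read by myogenic factors, to CACGNG, a site read by Hes and Hey proteins, and to TGANTCA, the core shared by the Maf recognition element to which Bach1 binds and by AP-1 sites.
Jag1: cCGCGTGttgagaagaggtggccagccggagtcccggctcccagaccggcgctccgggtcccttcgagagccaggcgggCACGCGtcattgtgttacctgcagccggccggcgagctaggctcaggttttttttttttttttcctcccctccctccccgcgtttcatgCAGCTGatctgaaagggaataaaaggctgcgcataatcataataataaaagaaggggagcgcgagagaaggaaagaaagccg
Dll1: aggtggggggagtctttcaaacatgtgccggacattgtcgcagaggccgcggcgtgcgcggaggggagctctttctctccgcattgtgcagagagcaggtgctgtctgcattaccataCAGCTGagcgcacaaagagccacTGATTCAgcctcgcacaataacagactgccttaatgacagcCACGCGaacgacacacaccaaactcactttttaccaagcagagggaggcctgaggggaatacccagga
Jag2: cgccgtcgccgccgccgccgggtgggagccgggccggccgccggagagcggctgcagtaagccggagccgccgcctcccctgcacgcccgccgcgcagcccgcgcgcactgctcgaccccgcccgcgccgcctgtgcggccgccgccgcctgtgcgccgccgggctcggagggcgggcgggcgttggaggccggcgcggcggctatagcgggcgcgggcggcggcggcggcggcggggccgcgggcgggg
Both strands were searched, CACGNG includes CACGTG, which is itself an E box, and no 2 matches shared a base. CAGCTG stood 82 bases before the start in Jag1 and 132 bases before it in Dll1, and it occurs in 13% of the 32851 upstream windows of the reference table. CACGNG matched at 249 and 171 bases before the start of Jag1 and at 68 bases before that of Dll1, against 23.5% of all windows. TGANTCA matched only in this Dll1 window among the 8 member windows, as TGATTCA 109 bases before the start, against 6.75% of all windows. The central T of this match is neither the C nor the G of that core, and the share counts any central base. The RBPJ core TGGGAA, found in 21.6% of all windows, matched in none of the 8 windows, which belong to 7 of the 10 genes. The Jag2 window held none of the 4 motifs. Such matches describe letters and are not binding sites. The other Dll1 start and the windows of Notch2, Notch3 and Nrarp held 1 CACGNG match each, and the Notch1 window held none. Hes1, Hey1 and Heyl had no entry in the promoter table.

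Signal is given throughout as the log2 processed intensity of a probe minus the 75th percentile of its array, so that 0 is the level of a probe at that percentile. Levels of different probes are not set against each other, since probes differ in how well they bind. Probes entered the test if some condition had them well above background on each of its 3 arrays, and a probe was called where its Benjamini-Hochberg adjusted p, taken over all 29664 probes tested, was under 0.05. The rule left 9 of the 14 member probes, 1 for each gene but Nrarp, and all 9 were well above background on all 12 arrays.

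The arrays had 47.6% to 58.9% of probes well above background and 75th percentiles between 325.5 and 534.4. Both lowest values belonged to replicate 3 of siBach1 day 0. The share above background was 56.1% to 58.9% in replicate 1 and 47.6% to 53.9% in replicate 3. Bach1 itself fell by 1.77 on the log2 scale at day 0 (SE 0.11, adjusted p 1.2e-05) and by 1.97 at day 2 (SE 0.11, adjusted p 1.4e-05). Of the 5 myoblast markers, Myod1, Des, Cdh15 and Itga7 were detected in every condition and Myf5 on 2 of 3 arrays of each. All 6 markers of differentiating muscle rose from day 0 to day 2 in both siRNAs. Endothelial, adipocyte and glial markers were near background, with at most 1 of 4 genes detected on all arrays of a condition. Immune markers were detected for 4 of 4 genes, and smooth muscle markers for 3 of 4. Probes seen on each of the 12 arrays were 2 of 2 for Csf1r, 1 of 2 for Itgam and 1 of 3 for Cd68. For Ptprc, the defining leukocyte gene, this held for 1 of 7 probes. Another 5 probes of Ptprc and 1 of Cd68 were not above background on any array. One slide carried replicates 1 and 2 and a second carried replicate 3, and each condition kept its own position on both slides, so position and condition cannot be told apart.

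After siBach1 at day 0, Dll1, Jag1, Jag2 and Hey1 were higher than in siControl cells, by 1.45-fold to 2.29-fold, while the 3 receptors, Hes1 and Heyl were not called. Thus 4 of the 9 member probes were called higher and 0 lower, against 8.8% higher and 8.32% lower among all probes tested. A change of at least 2-fold was called for 2 members, Dll1 and Jag1, against 2.79% of all probes in either direction. The median difference was 0.39 over the 9 members and 0.09 over all probes. At day 2 only Jag1 was called, so that 1 of 9 was higher and 0 lower, against 5.75% and 6.26% of all probes, and 0 members passed 2-fold, against 2.17%. At an unadjusted p under 0.05 in limma, and also in the methods' t-test, 0 members were lower at day 0 and 1, Heyl, was lower at day 2.

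**Figure D1:**
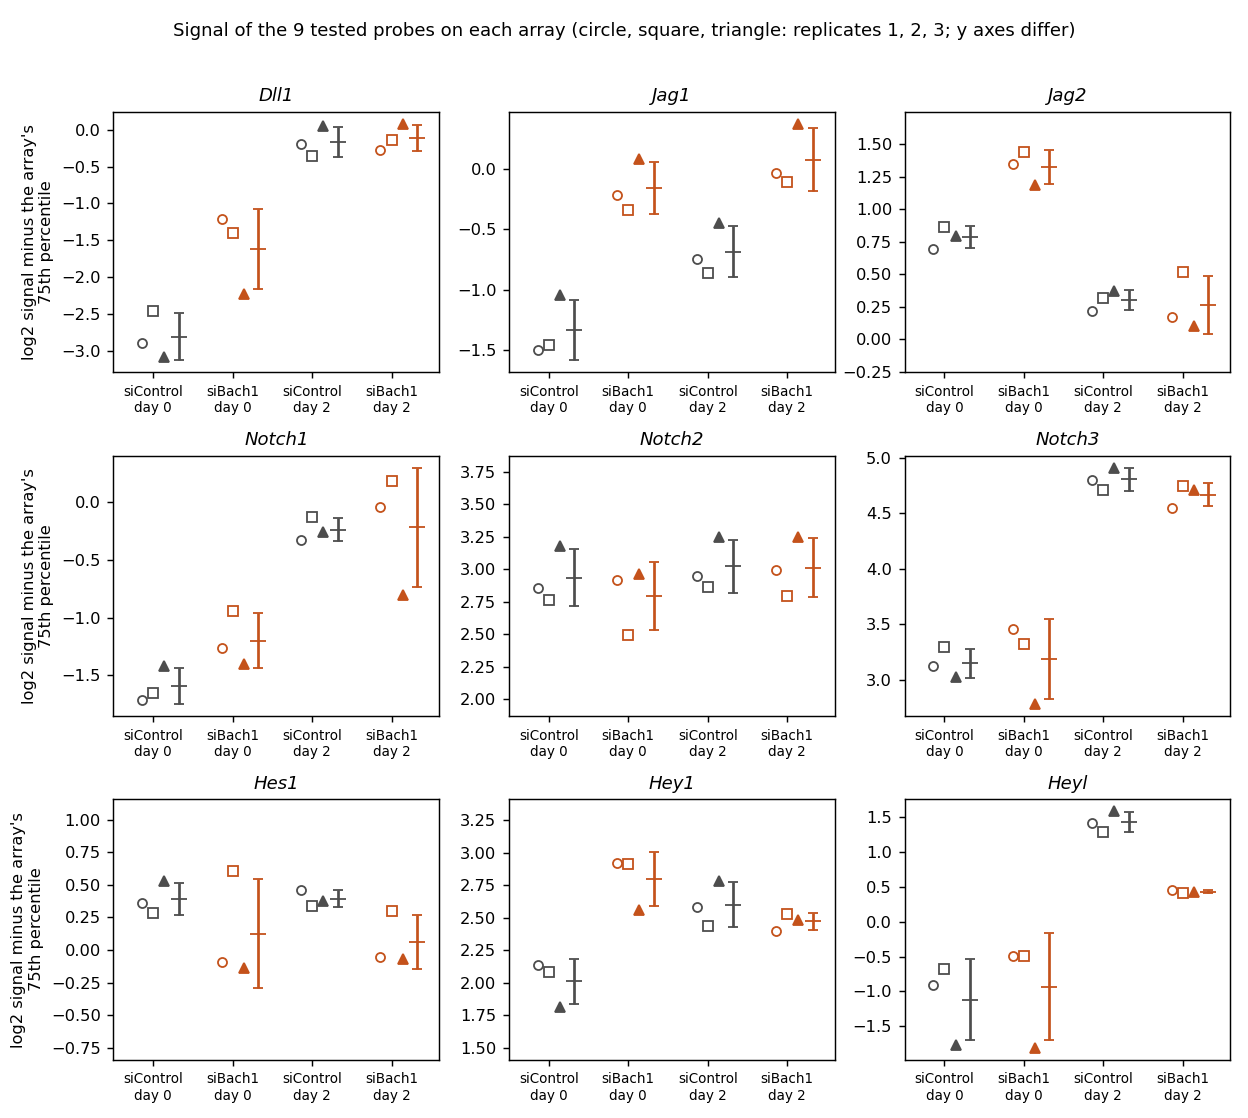
Signal of the 9 tested probes on every array, as log2 intensity minus the array's 75th percentile, in the 4 conditions. Circles, squares and triangles are replicates 1, 2 and 3, bars give the mean and SD (n = 3), and each panel has its own y axis. Jag1 lies higher in siBach1 than in siControl cells on both days without overlap, as Dll1 and Hey1 do at day 0.

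Dll1 encodes a Delta-type ligand whose loss in mouse muscle is known to release progenitors into early differentiation. At day 0 its 3 siControl arrays read -2.89, -2.46 and -3.08 and its 3 siBach1 arrays -1.21, -1.41 and -2.23. By day 2 the siControl arrays read -0.19, -0.35 and 0.05 and the siBach1 arrays -0.28, -0.14 and 0.08. The lowest siBach1 array at day 0, replicate 3, was still above every siControl array of that day, and at day 2 both sets covered the same range. Silencing raised Dll1 by 1.20 at day 0 (SE 0.25, 2.29-fold, adjusted p 0.0099), and the difference at day 2 was 0.05 with a 95% interval of -0.52 to 0.62 (adjusted p 0.93). Within the slides the day 0 difference was 1.37 and 0.85. It was not called in the methods' t-test after adjustment (adjusted p 0.13) or when only the 6 arrays of day 0 were fitted (adjusted p 0.056), in a range of 0.001 to 0.13 over all alternatives. The effect of siBach1 on Dll1 changed by -1.15 from day 0 to day 2 (SE 0.36), which was not called (adjusted p 0.099), and without replicate 3 of siBach1 day 0 this was -1.45 with an adjusted p of 0.027.

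Jag1, a Jagged-type ligand, was the member called on both days between the siRNAs. Its siControl arrays at day 0 stood at -1.50, -1.46 and -1.05, and the siBach1 arrays of that day at -0.22, -0.34 and 0.09. For day 2 the values were -0.74, -0.86 and -0.45 in siControl and -0.03, -0.11 and 0.38 in siBach1 cells. Every siBach1 array lay above every siControl array, across days as well. Silencing raised the signal by 1.18 at day 0 (SE 0.18, 2.27-fold, adjusted p 0.0017) and by 0.76 at day 2 (SE 0.18, 1.70-fold, adjusted p 0.023). The differences within slides were 1.21 and 1.13 at day 0 and 0.73 and 0.83 at day 2. At day 2 the call was lost, with adjusted p between 0.054 and 0.074, when replicate 1 or 2 of siControl day 2 or replicate 1 or 3 of siBach1 day 2 was left out. It was also lost with no filter (adjusted p 0.083), in the methods' t-test after adjustment (adjusted p 0.12) and with only the 6 arrays of day 2 (adjusted p 0.053).

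Jag2, the other Jagged-type ligand, was called higher at day 0. The siControl arrays gave 0.70, 0.87 and 0.79 at day 0, where the siBach1 arrays gave 1.34, 1.44 and 1.19. The corresponding signals at day 2 were 0.22, 0.32 and 0.37 against 0.17, 0.52 and 0.10. The groups were apart at day 0 and overlapped at day 2. The rise at day 0 was 0.54 (SE 0.12, 1.45-fold, adjusted p 0.011), with 0.61 and 0.39 within the slides and no call where no filter was used (adjusted p 0.056), and at day 2 the difference was -0.04 with a 95% interval of -0.30 to 0.23. The change of this effect between the days, -0.58 (SE 0.17), was not called (adjusted p 0.08), but it was called with the replicate number as a block (adjusted p 0.03).

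**Figure D2:**
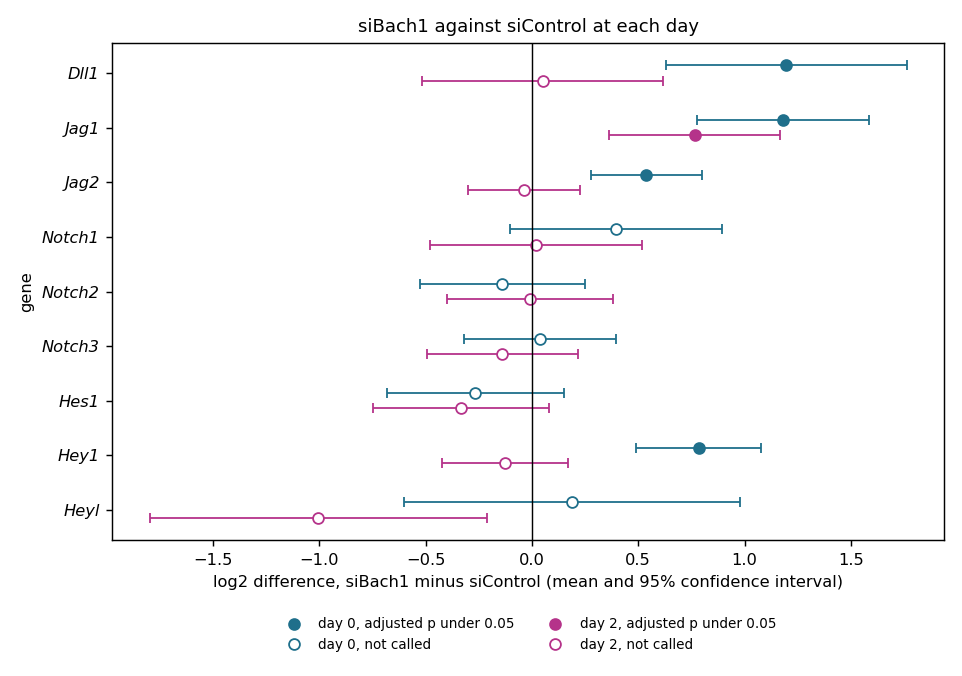
Difference between siBach1 and siControl cells at day 0 and day 2 for the 9 tested probes, on the log2 scale, with 95% confidence intervals from the fit over all arrays. Filled points have an adjusted p under 0.05. At day 0 the 3 ligands and Hey1 lie above 0, and at day 2 Jag1 does.

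The receptors showed no called difference between the siRNAs on either day. Notch1, which is known for the upkeep of satellite cells, read -1.71, -1.66 and -1.42 in siControl and -1.26, -0.94 and -1.40 in siBach1 cells at day 0, so that the siBach1 array of replicate 3 sat just above the highest siControl array. The difference of 0.39 had a 95% interval of -0.11 to 0.89 (adjusted p 0.27). At day 2 it was 0.02, with an interval of -0.48 to 0.52. Notch2 kept within 0.23 between its highest and lowest condition mean, and its differences were -0.14 (interval -0.53 to 0.25) and -0.01 (interval -0.40 to 0.38). Notch3, the receptor with the clearest change between days, differed by 0.04 (interval -0.32 to 0.39) at day 0 and by -0.14 (interval -0.49 to 0.22) at day 2.

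Among the targets, Hey1 was the member whose change of the silencing effect between the days was called. At day 0 Hey1 stood at 2.14, 2.09 and 1.82 on the siControl arrays and at 2.92, 2.91 and 2.56 on the siBach1 arrays. On day 2 the readings were 2.58, 2.44 and 2.78 for siControl and 2.40, 2.53 and 2.49 for siBach1. The day 0 groups were apart and the day 2 groups overlapped. Silencing raised Hey1 by 0.78 at day 0 (SE 0.13, 1.72-fold, adjusted p 0.003), with 0.80 and 0.74 within the slides and no call in the methods' t-test after adjustment (adjusted p 0.059), and at day 2 the difference was -0.13 with a 95% interval of -0.42 to 0.17 (adjusted p 0.6). The effect changed by -0.91 between the days (SE 0.19, adjusted p 0.026), by -0.85 on the first slide and by -1.04 on the second. This made 0 of 9 members called higher and 1 lower in the difference of the siBach1 effect, against 2.39% and 2.2% of all probes, with 0 past 2-fold, against 1.44%. Of all calls in this difference 52% were higher, a share that was 64.8% under quantile normalization and 69.4% with no filter, and 42.7% under normexp, 41.7% with the robust prior, 41.4% in the methods' t-test after adjustment, 39.6% with the replicate block and 38.3% with the slide block. The Hey1 call is close to the threshold: with single arrays left out the adjusted p was between 0.02 and 0.074, and it was 0.05 or above in 9 of 12 such fits. With no filter it was 0.13.

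Heyl, a Hey-type repressor, gave its widest gap at day 2. The siControl arrays of day 2 read 1.42, 1.30 and 1.59, and the siBach1 arrays 0.45, 0.42 and 0.43. Day 0 gave -0.91, -0.67 and -1.77 in siControl and -0.49, -0.49 and -1.81 in siBach1 cells. At day 2 every siBach1 array was below every siControl array, whereas at day 0 the sets overlapped and replicate 3 was the lowest array in each. The effect of siBach1 on Heyl changed by -1.19 between the days (SE 0.50), which was not called (adjusted p 0.2). Within replicates 1, 2 and 3 this change was -1.38, -1.07 and -1.13. The difference at day 2 was -1.004 (SE 0.36, 95% interval -1.80 to -0.21), which was not called (adjusted p 0.098), and it was -0.92 and -1.16 within the slides. The wide spread of the day 0 arrays enters the shared error of this fit. With the 6 arrays of day 2 alone the adjusted p was 0.0078, without replicate 3 of siBach1 day 0 it was 0.024, and over all alternatives it ran up to 0.25. The methods' t-test after adjustment also called Heyl lower at day 2. Markers of differentiating muscle stood lower in siBach1 than in siControl cells on the same arrays: their sum, the log2 of the added intensities of all probes on the list, was 9.44 to 9.69 against 10.1 to 10.2, Myog was lower by a log2 difference of -0.98 (adjusted p 0.016) and the fusion gene Mymk by one of -0.59 (adjusted p 0.027), while the other 4 genes of the list were not called. The part of this difference in the Heyl values was not tested, and in bulk RNA fewer cells of a type and less RNA per cell cannot be told apart.

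Hes1, a repressor that many Notch-responsive cells induce, was not called in any of the 5 comparisons. It read 0.36, 0.28 and 0.53 at day 0 and 0.46, 0.33 and 0.38 at day 2 in siControl cells. The siBach1 arrays gave -0.09, 0.61 and -0.14 at day 0 and -0.05, 0.30 and -0.07 at day 2. Replicate 2 was the highest siBach1 array on both days. The differences of -0.27 (95% interval -0.68 to 0.15) and -0.33 (interval -0.75 to 0.08, lower on every array) were not called, with adjusted p of 0.37 and 0.29, and without replicate 2 of siBach1 day 0 the first became -0.51 with an adjusted p of 0.033.

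Counted by overlap, 5 of the 9 probes had no overlap between the siRNAs at day 0, namely the 4 called ones and Notch1, against 37.3% of all probes. At day 2 these were 3, Jag1 upwards and Hes1 and Heyl downwards, against 32.8%. Beside the day 0 result, the summed signal of the satellite cell list, Pax7, Calcr and Cd34, was 1.88 to 2.27 in siBach1 and 3.11 to 3.38 in siControl cells. At day 2 it was 2.29 to 2.70 and 3.54 to 3.73. Cd34, on the brighter of its probes, was lower at day 0 by a log2 difference of -1.21 (adjusted p 0.00038) and Pax7 by one of -0.78, which was not called (adjusted p 0.11), while Calcr was not above background on any array. The satellite cell sum follows mainly this Cd34 probe, whose siControl mean at day 0 was 3.18, while that of Pax7 was -1.72. The smooth muscle list summed to 3.88 to 4.05 in siBach1 and 4.30 to 4.60 in siControl cells at day 0, and the myoblast list to 8.16 to 8.32 and 7.89 to 8.01. The myoblast sum follows mainly the brighter Itga7 probe, with day 0 means of 7.46 in siBach1 and 7.14 in siControl cells, and Cdh15, with 6.33 and 5.87. On its brighter probe Des had 4.62 and 4.69. Myod1 had 3.33 and 3.20, with overlapping arrays. The part of these lists in the member values was not tested.

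More members were called between day 0 and day 2 than between the siRNAs, as was the case for all probes. In siControl cells 6 of the 9 members were called higher and 1 lower, against 24.6% and 28.7% of all probes, and 4 passed 2-fold, against 20%. In siBach1 cells 4 were higher and 1 lower, against 23.8% and 32.3%, and 4 passed 2-fold, against 20.5%. The median change of the members was 0.65 in siControl and 0.24 in siBach1 cells, where the medians of all probes were 0.00 and -0.07. Since each pair of comparisons shares arrays, the values are given side by side and their likeness is not a result.

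Notch3 rose in both siRNAs, by 1.66 in siControl (SE 0.16, 3.15-fold, adjusted p 1.1e-05) and by 1.48 in siBach1 cells (SE 0.16, 2.79-fold, adjusted p 2.2e-05). Its signals went from 3.12, 3.29 and 3.03 to 4.80, 4.70 and 4.91 in siControl cells, and from 3.46, 3.32 and 2.78 to 4.55, 4.74 and 4.71 in siBach1 cells. No array of day 0 reached any array of day 2. Notch1 rose by 1.36 (SE 0.22, 2.56-fold, adjusted p 0.00047) and by 0.98 (SE 0.22, 1.98-fold, adjusted p 0.0035), to -0.33, -0.13 and -0.25 at day 2 in siControl cells and to -0.04, 0.19 and -0.80 in siBach1 cells, where replicate 3 was the lowest. The rise of Notch1 in siBach1 cells was not called in the methods' t-test after adjustment (adjusted p 0.076). Notch2 changed by 0.09 (95% interval -0.30 to 0.48, adjusted p 0.71) and by 0.22 (interval -0.17 to 0.61, adjusted p 0.33), the latter called with the replicate number as a block (adjusted p 0.038). Over the 12 arrays Notch2 ranged from 2.50 to 3.25.

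The ligands parted between the days. Dll1 rose by 2.65 in siControl cells (SE 0.25, 6.28-fold, adjusted p 1.1e-05) and by 1.50 in siBach1 cells (SE 0.25, 2.84-fold, adjusted p 0.00051), starting from a higher level in the latter. Jag1 rose by 0.65 in siControl cells (SE 0.18, adjusted p 0.011, but 0.055 in the methods' t-test after adjustment), while its change of 0.24 in siBach1 cells was not called (adjusted p 0.3), except with the replicate number as a block (adjusted p 0.0087). The change of the silencing effect on Jag1, -0.42 (adjusted p 0.39), was likewise called with that block (adjusted p 0.022). Jag2 went the other way and fell by 0.48 in siControl (SE 0.12, adjusted p 0.0055), and fell by 1.06 in siBach1 cells (SE 0.12, adjusted p 2.8e-05). Of the members, Jag2 was the one called lower between the days.

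Heyl was the target that rose most, by 2.55 in siControl cells (SE 0.36, 5.88-fold, adjusted p 0.00014) and by 1.36 in siBach1 cells (SE 0.36, 2.57-fold, adjusted p 0.0076), the latter not called in the methods' t-test after adjustment (adjusted p 0.071). Hey1 rose by 0.59 in siControl cells (SE 0.13, 1.50-fold, adjusted p 0.0035), whereas in siBach1 cells it was lower on every array of day 2 by a mean of -0.32, which was not called (adjusted p 0.06). For Hes1 the changes were 0.00 and -0.06, with intervals of -0.41 to 0.42 and -0.48 to 0.35. Changes of Dll1 and Heyl were larger on the second slide, but that slide holds only replicate 3, so slide and replicate cannot be told apart. For Dll1 the first and second slide gave 2.41 and 3.14 in siControl and 1.10 and 2.31 in siBach1 cells. For Heyl they gave 2.15 and 3.36 in siControl and 0.93 and 2.24 in siBach1 cells. All 3 replicates rose in each of these cases. Beside these changes stands that of the differentiating muscle list, whose sum was 5.04 to 5.61 in siControl and 4.88 to 5.42 in siBach1 cells at day 0, before the day 2 sums given above, and its part in the members' changes was not tested.

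**Figure D3:**
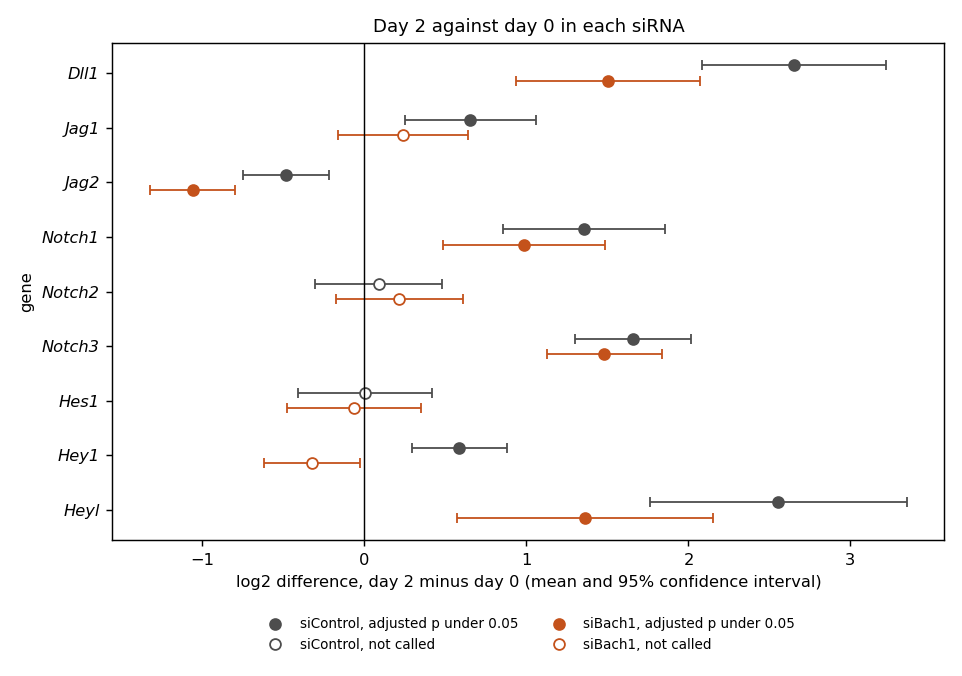
Difference between day 2 and day 0 in siControl and in siBach1 cells for the 9 tested probes, on the log2 scale, with 95% confidence intervals. Filled points have an adjusted p under 0.05. Dll1, Heyl, Notch3 and Notch1 lie above 0 in both siRNAs, and Jag2 lies below 0.

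The 5 remaining probes could not be tested. Second probes of Dll1, Notch2 and Heyl were above background on 0 of 12 arrays, and a second Notch1 probe on 1 array in each siBach1 condition. For Nrarp, which has a single probe, 1 array of siControl day 0 was well above background and no other. Its signals were -4.66, -4.53 and -4.67 at day 0 and -6.97, -6.14 and -6.31 at day 2 in siControl cells, and -6.72, -4.90 and -5.86 and -6.97, -5.86 and -6.29 in siBach1 cells. As nearly all of these are not well above background, no fold change is given.

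For each member whose condition means spanned at least 1 on the log2 scale, the tested probes of other genes that lay nearest in their pattern over the 12 arrays were sought, by the root mean square difference of signals centred on each probe's mean. Nearest to Dll1 were Clec2d, at 0.27, and 1600027J07Rik, at 0.29. Jag1 lay closest to Slx4ip, at 0.14, and to LOC102640520, at 0.14. For Jag2 the nearest were Otud6b, at 0.12, and E330009J07Rik, at 0.13. Notch1 had Olfr97, at 0.17, and Cep162, at 0.19, as neighbours, and Notch3 had Dync1i1, at 0.11, and Acsl3, at 0.13. Heyl lay nearest to Itga4, a chain of an integrin receptor, at 0.26, and to 4833422C13Rik, at 0.28. No member was the neighbour of another.

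Other genes of the pathway were taken from 7 lists of 50 genes, of which 41 had a tested probe and 72 probes were tested. Dll3, Dll4, Dlk1, Dtx1, Hes2, Hes3, Hes5, Hey2 and Helt were not tested. At day 0, 12 of the 72 probes were called higher and 9 lower after siBach1, with a median of 0.13, and at day 2, 9 and 6, with a median of 0.00. The shares over all probes were 8.8% and 8.32% at day 0 and 5.75% and 6.26% at day 2. Between the days 30 were higher and 10 lower in siControl cells, against 24.6% and 28.7% of all probes, and 27 and 15 in siBach1 cells, against 23.8% and 32.3%. Of the 39 calls of these probes between the siRNAs or in the change of the silencing effect, 21 were lost when some single array was left out, with adjusted p up to 0.16. These were the calls given here for Adam17, Aph1a, Aph1c, Dner, Dtx2, Lfng, Maml1, Maml2, Mib1 and Spen, for Dtx4 at day 0, for Bend6, Neurl1b, the first Rbpj probe and the brightest Itch probe at day 2, for the other probes of Itch and Psen2 at day 0, and for the change of the effect on Mfng and Fbxw7.

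In the nucleus, the DNA-binding partner Rbpj was lower after siBach1 while a coactivator was higher. The first Rbpj probe read 2.84, 2.98 and 2.78 in siControl and 2.43, 2.15 and 2.30 in siBach1 cells at day 0, without overlap. It fell by 0.58 at day 0 (SE 0.10, adjusted p 0.0036) and fell by 0.45 at day 2 (adjusted p 0.018), and the second probe fell by 0.71 at day 0 (adjusted p 0.0058), with -0.40 at day 2, which was not called (adjusted p 0.088). Maml3, a Mastermind coactivator, rose by 0.61 at day 0 (adjusted p 0.0081) and by 0.70 at day 2 (adjusted p 0.0065) on its brighter probe and by 0.86 at day 0 (adjusted p 0.0087) on the other. Maml1 rose by 0.28 at day 0 and Maml2 by 0.72 at day 2 on 1 of 2 probes. Among genes for repression, Bend6 fell by 0.63 at day 0 and fell by 0.55 at day 2 on 1 of 2 tested probes, while Cir1 rose by 0.40 and Spen by 0.39 on 1 of 2 tested probes at day 0. Over the list, 5 of 17 probes were higher and 3 lower at day 0, against 8.8% and 8.32% of all probes. At day 2 these were 2 and 2, against 5.75% and 6.26%.

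The cleavage machinery was split as well. Adam10, a protease that makes the first cut, read 2.82, 2.87 and 2.99 in siControl and 2.34, 2.17 and 2.45 in siBach1 cells at day 0. It fell by 0.57 at day 0 (adjusted p 0.003) and fell by 0.59 at day 2 (adjusted p 0.0047), and its dimmer probe gave -0.33 and -0.32, not called. Psen2, a gamma-secretase subunit, rose by 0.75 at day 0 (adjusted p 0.0018) and by 0.72 at day 2 (adjusted p 0.0038), and by 0.71 and 0.92 on its other probe, which 2 of 3 siControl arrays of day 0 measured above background. The subunit Aph1c rose by 0.56 and by 0.50, Aph1a by 0.31 at day 0 on 1 of 4 probes, and the protease Adam17 fell by 0.33 at day 0 on 1 of 3 probes. Aph1b and Aph1c are close paralogs, whose RNA may bind each other's probes, so their values are uncertain. Of the 22 probes of this list, 4 were higher and 3 lower at day 0, against 8.8% and 8.32% of all probes. At day 2 these were 3 and 1, against 5.75% and 6.26%.

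**Figure D4:**
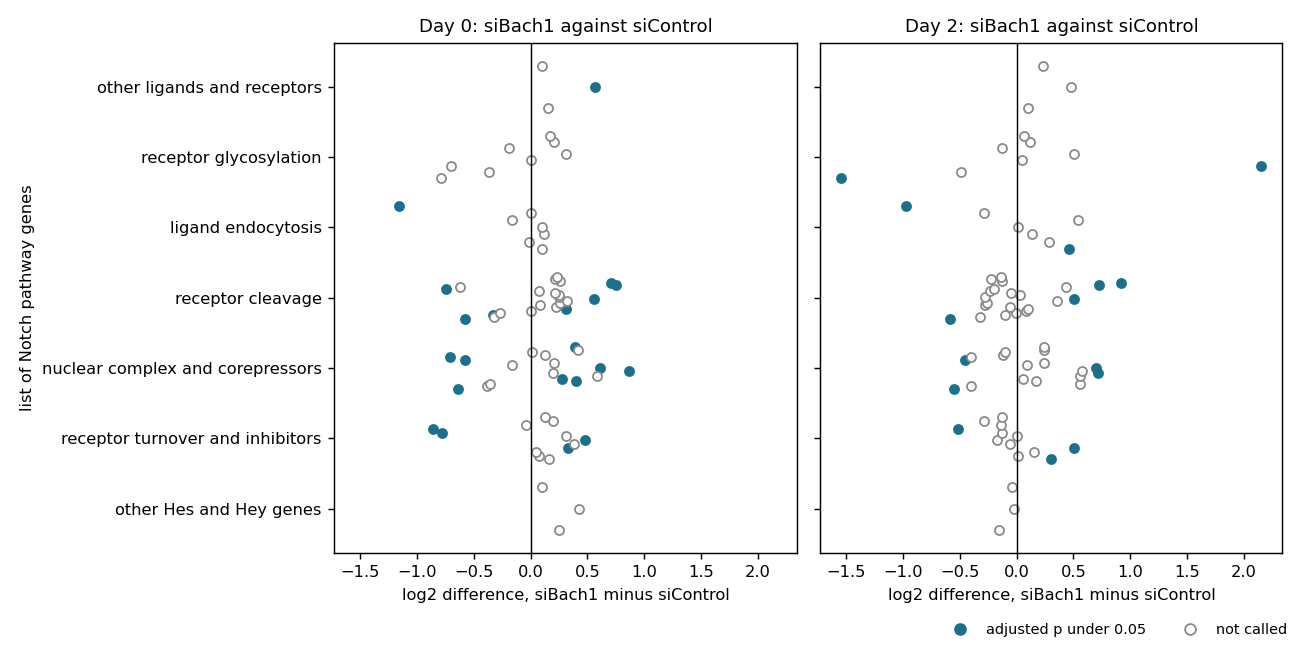
Difference between siBach1 and siControl cells, on the log2 scale, for the 72 tested probes of other Notch pathway genes in 7 lists, at day 0 (left) and day 2 (right). Each point is 1 probe, filled where its adjusted p was under 0.05. Calls lie on both sides of 0 in 3 of the 7 lists at day 0 and in 5 at day 2, and the point farthest to the right at day 2, at 2.15, is Mfng.

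Genes that set receptor glycosylation and ligand uptake included the largest called difference of the 7 lists on either day, Neurl1b at day 0 and Mfng at day 2. Mfng, a Fringe enzyme that adds sugar to Notch, read -2.71, -2.11 and -2.97 in siControl and -1.02, -0.37 and 0.06 in siBach1 cells at day 2, a rise of 2.15 (SE 0.41, 4.45-fold, adjusted p 0.0092). At day 0 it was well above background on 1 of 3 siControl and 0 of 3 siBach1 arrays. Its rise between the days was at least 15.3-fold in siBach1 cells (adjusted p 9.8e-07), the bound being set by the dimmest signal above background. In siControl cells every day 2 array lay above every day 0 array (adjusted p 6.4e-05), but no size is given against day 0 arrays that mostly did not measure it. The change of its silencing effect between the days was called (adjusted p 0.026) and rests on the same dim arrays. Lfng, another Fringe enzyme, was called lower at day 2 on a dim probe, and its brighter probe gave -0.36 and -0.49, not called. At day 2 the dim probe was well above background on 1 of 3 siControl and 0 of 3 siBach1 arrays, so that no fold is given. Neurl1b, a ubiquitin ligase for ligands, fell by 1.15 at day 0 (adjusted p 0.0088) and fell by 0.97 at day 2 (adjusted p 0.028), and Mib1, another such ligase, rose by 0.46 at day 2 on 1 of 2 probes.

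Among genes of receptor turnover, Itch, a ubiquitin ligase, fell by 0.86 at day 0 (adjusted p 0.00079) and fell by 0.51 at day 2 (adjusted p 0.019) on its brightest probe. A second Itch probe was called lower at day 0 (adjusted p 0.045), but 1 of 3 siBach1 arrays measured it above background, so that no size is given, and it was not called under normexp (adjusted p 0.45). The other tested probe gave 0.31 and 0.00, not called. Fbxw7, which marks the Notch intracellular domain for breakdown, rose by 0.48 at day 0 on 1 of 2 probes (adjusted p 0.0073). Dtx4 rose by 0.33 at day 0 and by 0.51 at day 2 (adjusted p 0.011), and Dtx2 by 0.30 at day 2. Of the 12 probes of this list, 10 were called higher between the days in siControl cells and 9 in siBach1 cells, against 24.6% and 23.8% of all probes, and none was called lower, against 28.7% and 32.3%. Dner, a further ligand, rose by 0.56 at day 0 (adjusted p 0.031), as 1 of 3 tested probes of other ligands and receptors. Of the other Hes and Hey genes, only Hes6 and Hes7 were tested, and none of their 3 probes was called between the siRNAs.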

How the data were processed

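RNA of 12 C2C12 samples was labelled with Cyanine 3 and hybridised singly to Agilent mouse arrays by the authors. They deposited scanner output, with a background-subtracted intensity (the processed signal) and flags for each spot, and a table of normalized log2 values, from which each array's 75th percentile and each probe's median had been subtracted. Feature Extraction is version 9.1 per the labels and 10.7.3.1 per the file headers. Control spots and 76 to 110 outlier spots per array were removed, no spot was saturated, and repeated spots were averaged. Processed signal was taken to log2 and the 75th percentile subtracted. A probe was tested if well above background on all 3 arrays of a condition (29664 of 56605). All 5 comparisons came from 1 fit of the 4 conditions in limma 3.58.1 (R 4.3.3), two-sided, with Benjamini-Hochberg adjustment. Neither replicate number nor slide was a block in this fit. The fit was tried on simulated data with noise drawn independently for each array. Those data left out the deviations that replicates of the same number shared. Files were read with Python 3.11 and pandas, and the number of arrays limits the precision.

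Replicates with the same number deviated together in all 18 pairs (r 0.142 to 0.595). The 36 pairs of different numbers ran from -0.442 to 0.264. Among these 36, replicates 1 and 2, which share a slide, gave 0.100 to 0.264, while pairs with replicate 3 were negative. Deviations were thus shared within a number. They were taken from the mean of the 3 arrays of a condition, so they cancel within it. Where replicate 3 deviates, replicates 1 and 2 must together deviate the other way. The second slide holds only replicate 3, so these pairs cannot tell slide from replicate. Of the 14 member probes, 10 have a RefSeq accession found in the reference table, all with the same symbol. The members, lists of pathway genes, markers and motifs were chosen with earlier results of these data known. Named genes are all members, Bach1, pathway genes called in either silencing comparison or changed at least 4-fold between days in both siRNAs, and the 2 nearest genes of members spanning at least 1. Markers and genes flagged for a closer look are named besides. Alternatives were quantile normalization, normexp (offset 50), the deposited normalized values, 2 other filters, replicate and slide as blocks, only the arrays compared, a robust trend prior, the methods' t-test, a 2-fold limit, the brightest probe of a gene alone, and leaving out arrays singly. Protein sequences were not used here, and 1 pathway gene that met the naming rule is counted but not reported here.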

Additional observations from a re-analysis of the deposited data

Results flagged for a closer look

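For some probes the effect of siBach1 differed between day 2 and day 0 by the test of that difference. Of the 9 members 0 were called higher and 1 lower, and of the 72 probes of other pathway genes 1 and 2. Over all probes 2.39% were higher and 2.2% lower, so the calls among the 72 were near that share. Hey1 changed by -0.91 (adjusted p 0.026), from higher in siBach1 cells at day 0 to overlapping levels at day 2. Mfng changed by 2.86 (adjusted p 0.026), with day 0 arrays mostly not well above background. Fbxw7 changed by -0.65 on 1 of 2 probes (adjusted p 0.028) and Aph1a by -0.52 on 1 of 4 probes (adjusted p 0.039). For 2 more genes every siBach1 array lay above every siControl array at day 0 and below every one at day 2, but the difference was not called. How many of all probes did so was not counted. Furin, a protease that processes Notch receptors, changed by -0.53 on 1 of 2 probes (adjusted p 0.078). The gamma-secretase subunit Psenen changed by -0.44 on 1 of 3 probes (adjusted p 0.077).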

How the results depend on the processing

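Of 18 called member differences among 45, 10 kept their call under every alternative, 8 lost it under at least 1, and none changed sign. Changes of sign were limited to values that were not called. Notch2 at day 2 between the siRNAs was 0.073 under quantile normalization and 0.011 under normexp, and Hes1 between days in siControl cells was -0.043 under normexp. With single arrays left out, siBach1 against siControl ranged at day 0 from -0.225 to 0.010 for Notch2, -0.140 to 0.629 for Heyl and -0.099 to 0.241 for Notch3, and at day 2 from -0.182 to 0.312 for Notch1, -0.126 to 0.104 for Notch2, -0.165 to 0.043 for Jag2 and -0.046 to 0.158 for Dll1. Between days it ranged from -0.026 to 0.211 for Notch2 and -0.051 to 0.071 for Hes1 in siControl, and from -0.196 to 0.176 for Hes1 in siBach1 cells, and the change of the silencing effect from -0.019 to 0.243 for Notch2 and from -0.198 to 0.174 for Hes1.

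The number of called members was 4 at day 0 and 1 at day 2 between the siRNAs, 7 and 5 between days in siControl and siBach1 cells, and 1 for the change of the silencing effect. In that order, a 2-fold limit gave 2, 0, 4, 4 and 0, the methods' t-test gave 2, 1, 6, 3 and 1 after adjustment and 4, 2, 7, 5 and 3 without, no filter gave 3, 0, 8, 5 and 0, normexp gave 4, 2, 7, 5 and 2, the replicate block gave 4, 1, 7, 7 and 3, and the slide block gave 4, 2, 7, 7 and 3. The replicate block changed no other call of a member than those given with the results. Leaving out single arrays gave 4 to 5, 0 to 2, 7 to 7, 5 to 6 and 0 to 3. The 3 came without replicate 3 of siBach1 day 0. Counts over all probes moved too. At day 0, 5079 calls became 2480 with no filter, 3129 in the adjusted and 8354 in the unadjusted t-test, 8165 with the replicate block and 8305 with the slide block. For day 2, 3563 became 1305, 1097, 7192, 6331 and 6457, and 2073 with only the arrays compared. The change of effect had 1361 calls, and 49, 6613, 3865, 4060 and, with the robust prior, 2142. The cause was not tested. Of 39 called differences of other pathway probes between the siRNAs or in their change, tried after seeing the data, 7 kept their call under every alternative, 32 lost it under at least 1, 0 with the replicate block, and none changed sign. Weak signal limits Nrarp, Mfng at day 0 and the second probes.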
